A study of Mus musculus with 15 samples.

Results

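The receptors and adaptors of the interleukin-1 (IL-1) family were followed through ear RNA of wild type mice and of mice lacking *Socs3* in keratinocytes. The 10 genes *Il1r1*, *Il1r2*, *Il1rl1*, *Il1rl2*, *Il18r1*, *Il1rap*, *Sigirr*, *Myd88*, *Irak2* and *Irak3* were taken by exact gene symbol, and all 10 were found among the 21110 genes in the files. The rule does not use their values, but the genes were chosen with earlier results of these data known. In *Socs3* cKO mice, on a C57BL/6 background, the conditional deletion acts in cells that use the keratin 5 promoter, and wild type C57BL/6 mice served as controls. At 2 weeks after birth there were 4 wild type and 4 *Socs3* cKO mice, and at 10 weeks there were 3 wild type and 4 *Socs3* cKO mice. Each of the 15 mice gave 1 RNA-Seq library, and each gene is expressed in FPKM, which is fragments counted per unit of transcript length and of mapped reads. The labels give the tissue as ear and the source as keratinocytes. Markers of other tissues were present: the summed FPKM of 5 skeletal muscle genes reached 608 to 911 in 2-week wild type mice, beside 8460 to 9340 for 8 keratinocyte genes. The muscle sum also differed between the genotypes without overlap at 2 weeks, when it was 1270 to 2130 for *Socs3* cKO mice and 2 of the 5 genes, *Ckm* (log2 fold change, log2(FC), 1.64) and *Tnnt3* (2.05), were higher at an adjusted p below 0.01 and a log2(FC) of at least 1 in limma. At 10 weeks it was 505 to 886 (wild type) and 273 to 511 (*Socs3* cKO), with overlap, and 1 of the 5, *Myl1* (-1.20), was lower by the same rule. The part of muscle in the differences of the 10 genes was not tested. The values are therefore described as those of ear tissue, and in such bulk RNA fewer cells of a type and less RNA per cell cannot be told apart.

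IL-1 family cytokines bind a ligand-binding receptor that then recruits a co-receptor, and the IL-1, IL-33 and IL-36 receptors share the co-receptor IL1RAP. The paired intracellular domains attract the adaptor MYD88, which assembles kinases of the IRAK family and passes the signal on to NF-kB and MAP kinases. The system holds several brakes: IL1R2 binds IL-1 without signalling and acts as a decoy, SIGIRR is an inhibitory receptor, and IRAK3 (IRAK-M) restrains the kinase complex. In the epidermis, keratinocytes store and release IL-1 and IL-36 cytokines, and signalling through the IL-36 receptor is best known from psoriasis-like inflammation. SOCS3 is a feedback inhibitor of signalling through STAT3, downstream of gp130 cytokines such as IL-6.

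The 5 ligand-binding receptor genes lie side by side on chromosome 1 of mm9, in the order *Il1r2*, *Il1r1*, *Il1rl2*, *Il1rl1* and *Il18r1*, all on the + strand. They are the only 5 protein-coding genes annotated between positions 40141613 and 40557699, a stretch of 416.1 kb. *Il1rap* lies on chromosome 16 (26581790 to 26730203, + strand), *Sigirr* on chromosome 7 (148277074 to 148286445, - strand), *Myd88* on chromosome 9 (119245052 to 119250529, - strand), *Irak2* on chromosome 6 (113588461 to 113645003, + strand) and *Irak3* on chromosome 10 (119578704 to 119639186, - strand). FPKM values here sum all transcripts of a gene, so that membrane-bound and soluble forms of *Il1rl1* or *Il1rap* are not separated. Exons of a gene on the other strand overlap 5.2% of the exon bases of *Irak3* (with *Tmbim4*), 4.9% of those of *Il1rap* and 2.6% of those of *Myd88* (with *Acaa1a*). The library kit does not mark the strand, and reads from those bases cannot be assigned to one gene or the other.

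Because the deleted gene acts on STAT3, the promoters were searched for the STAT motif TTCNNNGAA, for the AP-1 motif TGANTCA and for an NF-kB motif, on both strands. Promoters, taken as the 250 bases before a transcript start, were read from RefSeq (GRCm38.p6), where 9 of the 10 genes matched with 14 promoters. The STAT motif was found in 3 of the 14 promoters, those of *Il1r2*, *Myd88* and 1 of the 3 promoters of *Il18r1*, and in 7.02% of 32851 promoters genome-wide. The NF-kB motif was found in 1 of the 2 promoters of *Il1r1* (3.9% genome-wide), and the AP-1 motif in none of the 14 (6.75% genome-wide). The promoters with a STAT match are shown with the match in capitals, together with that of *Il1rl2*, the gene with the largest difference below, which held no match. They are written 5′ to 3′ along the gene. *Il1r2* is at chr1:40085843-40086092 (+), *Il18r1* at chr1:40465756-40466005 (+), *Myd88* at chr9:119340019-119340268 (-) and *Il1rl2* at chr1:40324339-40324588 (+).
Il1r2: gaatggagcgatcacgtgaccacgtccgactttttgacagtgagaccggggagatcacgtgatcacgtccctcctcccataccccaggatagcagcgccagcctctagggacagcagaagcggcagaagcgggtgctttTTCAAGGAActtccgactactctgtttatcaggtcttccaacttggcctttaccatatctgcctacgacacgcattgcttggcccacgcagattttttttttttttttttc
Il18r1: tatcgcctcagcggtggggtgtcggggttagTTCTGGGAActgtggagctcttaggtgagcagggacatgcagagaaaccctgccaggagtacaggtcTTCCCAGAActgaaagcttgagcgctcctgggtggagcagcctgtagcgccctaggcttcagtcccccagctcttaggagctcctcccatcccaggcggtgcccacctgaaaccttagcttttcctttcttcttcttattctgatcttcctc
Myd88: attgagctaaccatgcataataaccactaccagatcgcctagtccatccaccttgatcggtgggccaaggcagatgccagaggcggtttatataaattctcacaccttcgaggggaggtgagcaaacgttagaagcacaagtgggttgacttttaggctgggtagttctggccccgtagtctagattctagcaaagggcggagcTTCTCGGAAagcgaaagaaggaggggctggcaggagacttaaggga
Il1rl2: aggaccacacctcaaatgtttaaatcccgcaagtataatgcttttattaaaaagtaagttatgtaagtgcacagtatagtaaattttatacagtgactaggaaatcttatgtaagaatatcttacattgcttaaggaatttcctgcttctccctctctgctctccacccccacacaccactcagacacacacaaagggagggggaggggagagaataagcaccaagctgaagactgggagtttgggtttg
In *Il1r2* the match begins 111 bases before the start, in *Myd88* 46 bases before it, and in *Il18r1* 219 and 152 bases before it. These matches describe the letters of the window and no binding was measured.

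The libraries were checked before the comparisons. *Socs3* itself was 9.71 to 10.3 FPKM in the 4 wild type mice at 2 weeks and 1.25, 9.32, 12.6 and 3.51 FPKM in *Socs3* cKO, groups that overlapped. At 10 weeks the level was 2.02 to 4.81 FPKM in the wild type and 29.8 to 47.7 FPKM in *Socs3* cKO, so the labelled deletion does not show as a lower level in whole ear. Mice are therefore named *Socs3* cKO by their label throughout. FPKM also varied with transcript length and GC content differently between libraries. Across 12721 genes, Spearman's correlation of a library's deviation from the mean of all libraries with length was 0.238 to 0.366 in 2-week wild type libraries but -0.513 to -0.2 at 10 weeks, and with GC content it was 0.398 to 0.457 and 0.089 to 0.301, against -0.632 to -0.137 in the 8 *Socs3* cKO libraries. Genes listed at 0 FPKM numbered 1414 to 3176 in the wild type at 10 weeks and 4044 to 4423 in the other groups. The numbers that open the sample titles do not interleave between groups, although that of wild type replicate 1 at 2 weeks is out of sequence with its group, and the labels do not say what these numbers mark. A batch of preparation or sequencing is not given, so it cannot be told apart from age and genotype. The median log2(FC) of all genes tested was -0.21 at 2 weeks and 0.31 at 10 weeks and came to -0.003 and 0.054 after median-of-ratios scaling and to 0.047 and -0.024 after quantile normalization.

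The level of the genes in the wild type at 2 weeks ranged widely. Per length, *Il1r2* was highest at 39.4 ± 3.70 FPKM (SD, n = 4), followed by *Myd88* (21.1 ± 1.91), *Il1rl2* (16.5 ± 2.18), *Il1rap* (11.9 ± 1.11) and *Il1r1* (11.7 ± 0.880). The kinases *Irak2* (4.58 ± 0.188) and *Irak3* (4.54 ± 0.407) and the inhibitory receptor *Sigirr* (3.49 ± 0.398) followed. The IL-33 receptor *Il1rl1* (0.903 ± 0.209) and the IL-18 receptor *Il18r1* (0.680 ± 0.0857) stood near or under 1 FPKM. Among neighbours in this order, the ranges of *Myd88* and *Il1rl2* overlapped, as did those of *Il1rap* and *Il1r1*, of *Irak2* and *Irak3*, of *Irak3* and *Sigirr* and of *Il1rl1* and *Il18r1*. Across the groups, the mean was highest in 10-week *Socs3* cKO for 6 of the 10 genes and lowest in 10-week wild type for 6.

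**Figure D1:**
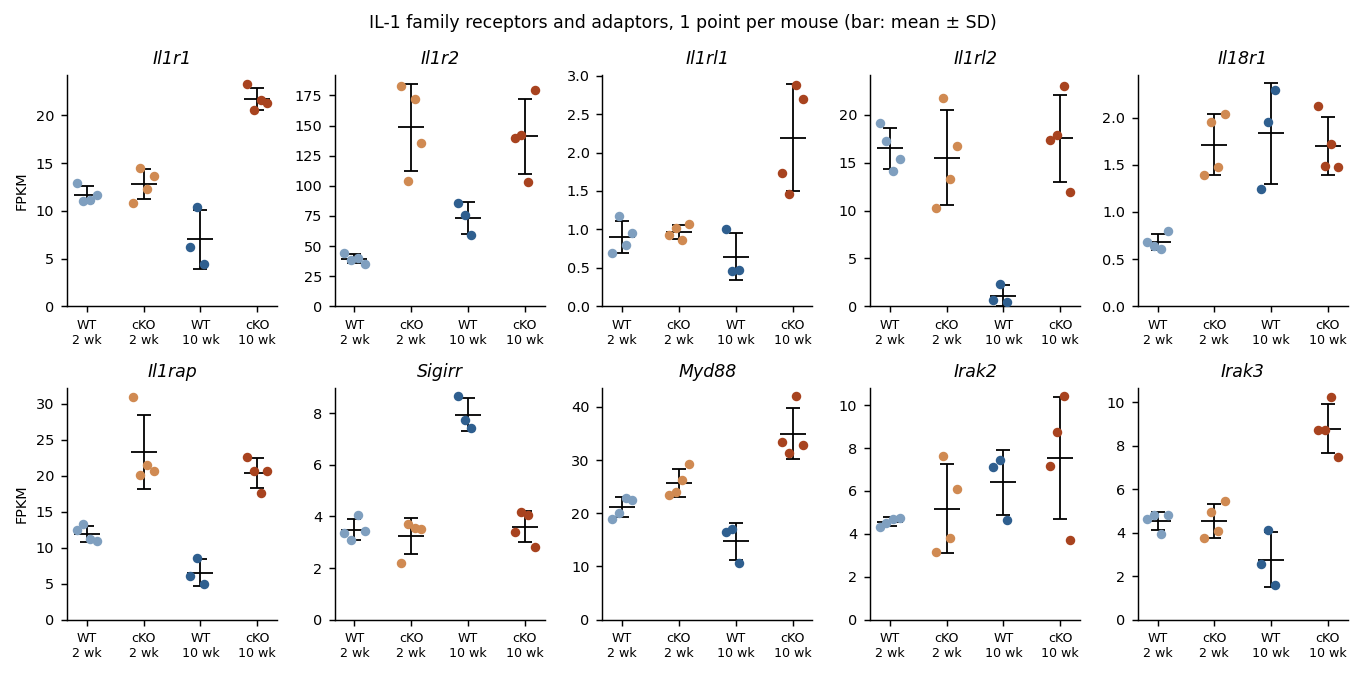
FPKM of the 10 genes (1 panel each, vertical axis from 0) in each mouse, with the groups on the horizontal axis, 1 point per mouse and bars for the mean and SD. At 10 weeks the *Socs3* cKO mice lie above the wild type in 7 panels and below it in that of *Sigirr*; *Il1rl2* is near 1 FPKM only in the wild type at 10 weeks.

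At 2 weeks, 2 of the 10 genes were higher in *Socs3* cKO and none was lower, where a differentially expressed gene (DEG) had an adjusted p below 0.01 and an absolute log2(FC) of at least 1 in limma. *Il1r2* and *Il18r1* were these 2. Of all 13524 genes tested, 14.4% were DEGs (7.24% higher and 7.19% lower), and the median log2(FC) was 0.12 over the 10 genes and -0.21 over all. At 10 weeks, 6 were higher (*Il1r1*, *Il1rl1*, *Il1rl2*, *Il1rap*, *Myd88* and *Irak3*) and 1 was lower (*Sigirr*), with 14.9% of 13105 genes being DEGs (12.5% higher and 2.43% lower). The share of higher genes among all DEGs at this age was 83.7%, and 62.4% under median-of-ratios scaling, 54.4% under quantile normalization and 59.1% with the length and GC trends described above removed. No gene of the 10 had a lower level at 2 weeks at an unadjusted limma p below 0.05 either, and 3 had a higher one. The median log2(FC) at 10 weeks was 1.45 over the 10 genes and 0.31 over all. *Il1r2*, whose 10-week log2(FC) of 0.93 fell short of 1, *Il18r1* and *Irak2* were the 3 without a call at that age. All 10 genes passed the filter of 1 FPKM in at least 3 samples at each age, but *Il18r1* passed at 2 weeks only through the *Socs3* cKO mice and thus had to differ there. At 10 weeks *Il1rl1* and *Il1rl2* each reached 1 FPKM in 1 wild type mouse and 4 *Socs3* cKO mice. They too passed because the *Socs3* cKO mice were high.

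**Figure D2:**
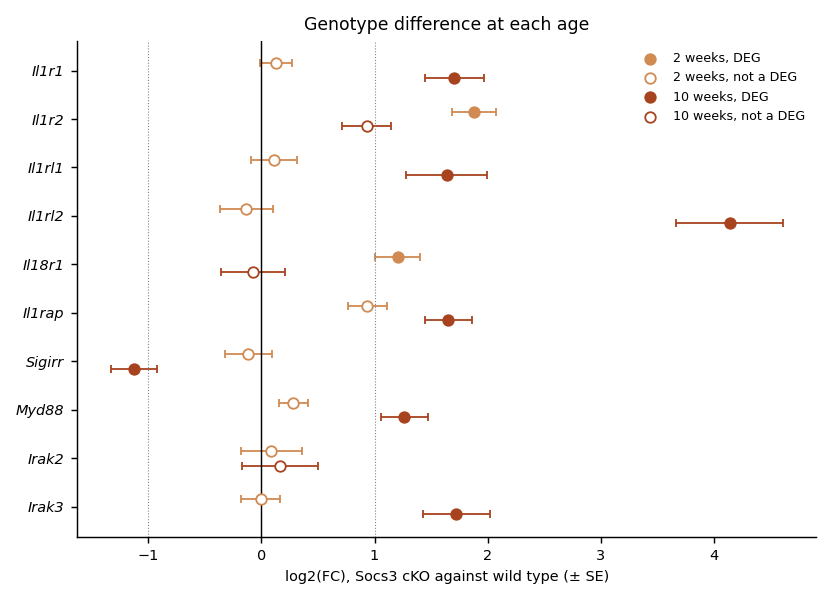
Log2(FC) of each gene, *Socs3* cKO against wild type, on the horizontal axis, with its SE, at 2 weeks (light) and 10 weeks (dark). Filled points are DEGs and dotted lines mark an absolute log2(FC) of 1. *Il1r2* and *Il18r1* are filled at 2 weeks only, and *Il1rl2* lies farthest from 0, at 4.14.

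*Il1r1*, the signalling receptor for IL-1α and IL-1β, differed between the genotypes at 10 weeks. At 2 weeks it was 13.0, 11.03, 11.2 and 11.6 FPKM in the wild type and 10.8, 14.5, 12.3 and 13.6 FPKM in *Socs3* cKO. The 10-week levels were 6.21, 10.4 and 4.39 FPKM in the wild type and 23.3, 20.6, 21.6 and 21.3 FPKM in *Socs3* cKO. The groups overlapped at 2 weeks, and at 10 weeks every *Socs3* cKO mouse was higher than every wild type mouse, the nearest being wild type replicate 2. The log2(FC) was 0.13 (SE 0.14, limma adjusted p = 0.468) at 2 weeks and 1.71 (SE 0.26, adjusted p = 0.00161) at 10 weeks. Without wild type replicate 2 the latter was 2.03 (adjusted p = 0.000223). After the trend of each library with length and GC content was removed it was 0.95, below the fold threshold, without the expression filter its adjusted p was 0.0112, and the transcript of *Il1r1* is among the longest of the 10 at 4829 bases.

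*Il1r2*, the decoy receptor, was the most abundant of the 10 per length in every group and rose at 2 weeks. It was 44.1, 38.4, 39.9 and 35.2 FPKM in the wild type and 183, 104, 172 and 136 FPKM in *Socs3* cKO at 2 weeks. By 10 weeks the values were 85.6, 75.9 and 59.4 FPKM in the wild type and 140, 142, 103 and 180 FPKM in *Socs3* cKO. The lowest *Socs3* cKO mouse exceeded the highest wild type mouse at both ages, and the wild type itself stood higher at 10 than at 2 weeks. Limma gave a log2(FC) of 1.88 (SE 0.19, adjusted p = 0.000317) at 2 weeks, a 3.69-fold rise that was a DEG in all 18 alternative settings, and 0.93 (SE 0.22, adjusted p = 0.00994) at 10 weeks. Neutrophils carry the decoy too, and 6 of 8 neutrophil markers were below 1 FPKM in every mouse at 2 weeks, with summed levels of 1.77 to 2.82 FPKM in the wild type and 1.88 to 4.86 FPKM in *Socs3* cKO. The sums at 10 weeks were 7.54 to 11.8 FPKM (wild type) and 3.34 to 8.96 FPKM (*Socs3* cKO), and neither of the 2 markers tested was a DEG in limma, although *Cxcr2* was lower at an unadjusted p below 0.05 (-1.08, adjusted p = 0.045). In the wild type *Cxcr2* averaged 1.04 FPKM at 2 weeks and 5.70 FPKM at 10 weeks, where *Il1r2* was higher too. The part of these markers in the *Il1r2* values was not tested.

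The decoy and the signalling receptor compete for the same ligand, and their ratio was taken within each mouse. At 2 weeks there were 3.01 to 3.54 FPKM of *Il1r2* per FPKM of *Il1r1* in wild type mice against 7.13 to 16.7 in *Socs3* cKO mice. The 10-week ratio was 7.2 to 13.6 in wild type mice against 4.77 to 8.4 in *Socs3* cKO mice. The groups did not overlap at 2 weeks and overlapped at 10 weeks. On the log2 scale the difference was 1.76 at 2 weeks (1.74 ± 0.104 to 3.50 ± 0.543, SD, n = 4 each; 2-sided exact permutation p = 0.0286, the smallest that 4 mice against 4 allow). In 10-week mice it was -0.78 (exact permutation p = 0.114, with 0.0571 the smallest possible in this form of the test). Over the 4 ratio comparisons made, the adjusted p was 0.114 and 0.152, and neither passed. The transcript of *Il1r2* is shorter than that of *Il1r1*, and the length trends of the libraries differed between the groups. With the length and GC trend removed, the 10-week log2(FC) was 0.87 for *Il1r2* and 0.95 for *Il1r1*, close to each other. The 2-week values in that setting were 1.43 for *Il1r2* and 0.25 for *Il1r1*. The ratio itself was not tested with the trend removed.

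**Figure D3:**
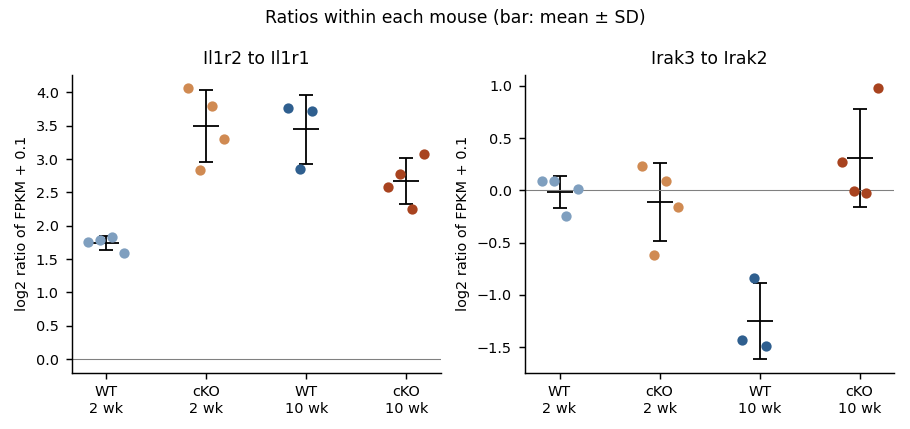
Log2 ratio of *Il1r2* to *Il1r1* (left) and of *Irak3* to *Irak2* (right) within each mouse, with 1 point per mouse and bars for the mean and SD of each group. The 4 wild type mice at 2 weeks lie below all others in the left panel, and the 3 wild type mice at 10 weeks lie lowest in the right panel.

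*Il1rl2*, the IL-36 receptor, showed the largest genotype difference of the 10 at 10 weeks. The 2-week levels were 19.1, 17.3, 14.1 and 15.4 FPKM in the wild type and 10.3, 21.8, 13.3 and 16.7 FPKM in *Socs3* cKO. At 10 weeks the level was 0.626, 2.35 and 0.422 FPKM in the wild type and 17.4, 17.8, 23.0 and 11.9 FPKM in *Socs3* cKO. The 3 wild type mice at 10 weeks stood apart below the other 12 mice, whose groups overlapped each other. This corresponded to a log2(FC) of -0.13 (SE 0.23, limma adjusted p = 0.644) at 2 weeks and 4.14 (SE 0.47, adjusted p = 0.000403) at 10 weeks, a 17.6-fold difference. It was a DEG in all 17 alternative settings, from 3.19 with a pseudocount of 1 to 4.80 without wild type replicate 2, and it was 3.87 with the length and GC trend removed. At 10 weeks *Il1rl2* passed the expression filter because of the *Socs3* cKO mice, so the filtered 10-week p-value is no support by itself. Without the filter the 10-week limma adjusted p was 0.00719. Keratinocytes are the cells best known to use this receptor in skin, and the summed FPKM of 8 keratinocyte markers overlapped between the genotypes at 10 weeks (5780 to 11300 for wild type mice, 7830 to 11900 for *Socs3* cKO mice). The single markers moved both ways: the desmosome gene *Dsg3* was a higher DEG (means of 2.41 and 33.8 FPKM, log2(FC) 3.88, limma adjusted p = 0.000227) and the cornified envelope gene *Lor* a lower one (-2.62, adjusted p = 0.000452), and 4 of the 8 were higher at an unadjusted p below 0.05. Their part in the *Il1rl2* difference was not tested.

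*Il1rl1* (ST2), the IL-33 receptor of mast cells and type 2 lymphocytes, was low throughout. At 2 weeks it was 0.694 to 1.17 FPKM in the wild type and 0.860 to 1.07 FPKM in *Socs3* cKO, ranges that overlapped. The 10-week levels were 1.005, 0.461 and 0.474 FPKM in the wild type and 1.73, 1.47, 2.87 and 2.69 FPKM in *Socs3* cKO, with every *Socs3* cKO mouse higher. The log2(FC) was 0.11 (SE 0.21, limma adjusted p = 0.664) at 2 weeks and 1.64 (SE 0.36, adjusted p = 0.00727) at 10 weeks, but the 10-week call was lost in 12 of 17 alternative settings. At 10 weeks *Il1rl1* passed the expression filter because of the *Socs3* cKO mice, so the filtered 10-week p-value is no support by itself. Without the filter the 10-week limma adjusted p was 0.0254. Of 8 mast cell markers tested at 10 weeks, *Ms4a2* (log2(FC) 2.83) and *Hdc* (1.94) were higher DEGs, as were 12.5% of all genes tested. *Cma1* (-0.39), *Tpsb2* (-0.12) and *Mcpt4* (-0.03) were lower without a call. The summed FPKM overlapped (at most 570 in wild type mice, against 418 to 824 in *Socs3* cKO mice). At 2 weeks, where *Il1rl1* did not differ detectably, the sums were 471 to 504 and 569 to 1130 FPKM, without overlap. In limma 5 of the 7 markers tested then were higher and 1 lower at an unadjusted p below 0.05, and 1 was a DEG. Their part in the *Il1rl1* difference was not tested.

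*Il18r1*, the IL-18 receptor of lymphocytes, differed at 2 weeks and not detectably at 10 weeks. The 2-week levels were 0.680, 0.637, 0.605 and 0.800 FPKM in the wild type and 1.40, 1.95, 1.48 and 2.03 FPKM in *Socs3* cKO, without overlap. By 10 weeks the values were 1.24, 1.95 and 2.29 FPKM in the wild type and 2.12, 1.48, 1.72 and 1.47 FPKM in *Socs3* cKO, with overlap. The wild type thus reached at 10 weeks the level that *Socs3* cKO mice had at 2 weeks. Limma gave a log2(FC) of 1.21 (SE 0.20, adjusted p = 0.0029) at 2 weeks and -0.08 (SE 0.28, adjusted p = 0.847) at 10 weeks. At 2 weeks *Il18r1* passed the expression filter only through the *Socs3* cKO mice, which fixed its direction, so that p-value is no support. Without the filter the 2-week adjusted p was 0.00443. With a pseudocount of 1 the 2-week value was 0.69, and leaving out wild type replicate 1, 2 or 3 raised its adjusted p to between 0.0126 and 0.014. The summed FPKM of 8 T cell markers was 162 to 179 for wild type mice and 129 to 172 for *Socs3* cKO mice at 2 weeks, and overlapped, but most of it was *Thy1* (means of 147 and 113 FPKM). Of the 7 markers tested at that age, the T cell receptor subunits *Cd3d* (log2(FC) 1.23, limma adjusted p = 0.008) and *Cd3g* (1.08, adjusted p = 0.00998) were higher DEGs and *Cd4* (-1.28, adjusted p = 0.00557) was a lower one. Their part in the *Il18r1* difference was not tested.

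Summed over the 5 ligand-binding receptors, the FPKM per mouse at 2 weeks was 69.2 ± 5.91 (SD, n = 4) for wild type mice and 180 ± 29.5 (n = 4) for *Socs3* cKO mice. The 10-week sums were 84.2 ± 15.1 (n = 3) and 185 ± 26.2 (n = 4). The decoy *Il1r2* made up 57.0% ± 2.08 of this sum for wild type mice and 81.9% ± 7.12 for *Socs3* cKO mice at 2 weeks, and 87.5% ± 3.71 and 76.0% ± 6.22 at 10 weeks. The share of *Il1rl2* was 23.8% ± 1.77 and 9.17% ± 4.52 at 2 weeks, and 1.29% ± 1.12 and 9.93% ± 3.94 at 10 weeks. The sum therefore mostly follows the decoy.

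**Figure D4:**
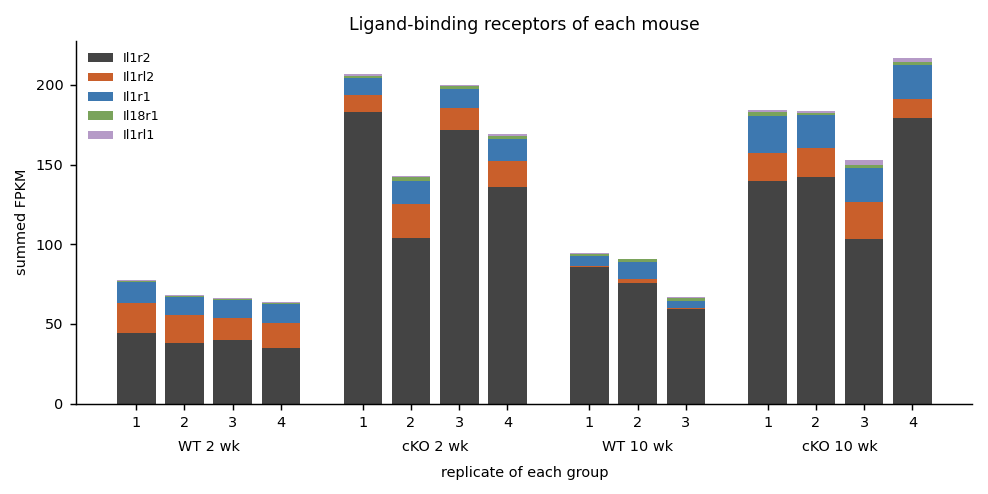
Stacked FPKM of the 5 ligand-binding receptors in each mouse, with the replicates of the 4 groups on the horizontal axis and summed FPKM from 0 on the vertical axis. The dark bar of *Il1r2* dominates in all 15 mice, and the *Il1rl2* segment is hardly visible in the wild type at 10 weeks.

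*Il1rap*, the co-receptor shared by the IL-1, IL-33 and IL-36 receptors, was higher in *Socs3* cKO at both ages. At 2 weeks it was 12.4, 13.3, 11.3 and 10.9 FPKM in the wild type and 30.9, 20.1, 21.4 and 20.7 FPKM in *Socs3* cKO. In 10-week mice it was 6.12, 8.57 and 4.91 FPKM in the wild type and 22.5, 20.7, 17.5 and 20.6 FPKM in *Socs3* cKO. The groups did not overlap at either age, and *Socs3* cKO replicate 1 stood above its group at 2 weeks. This corresponded to a log2(FC) of 0.94 (SE 0.17, limma adjusted p = 0.0044) at 2 weeks, just short of the fold threshold, and 1.65 (SE 0.21, adjusted p = 0.000703) at 10 weeks. The 2-week value was 1.14 after median-of-ratios scaling and 1.10 after quantile normalization, both DEGs. The 10-week value was 0.88 with the length and GC trend removed, and was not.

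*Sigirr*, the inhibitory receptor, was the only one of the 10 with a lower level in *Socs3* cKO that passed the test. The 2-week levels were 3.36, 3.10, 4.04 and 3.44 FPKM in the wild type and 2.22, 3.72, 3.57 and 3.53 FPKM in *Socs3* cKO. At 10 weeks the level was 8.66, 7.73 and 7.43 FPKM in the wild type and 3.39, 4.16, 4.05 and 2.84 FPKM in *Socs3* cKO. The 3 wild type mice at 10 weeks stood above the other 12 mice, the reverse of the pattern of *Il1rl2*. The log2(FC) was -0.12 (SE 0.21, limma adjusted p = 0.648) at 2 weeks and -1.13 (SE 0.21, adjusted p = 0.00337) at 10 weeks. The 10-week call was lost with a pseudocount of 1 (-0.96) and without wild type replicate 1 (adjusted p = 0.0187), wild type replicate 3 (0.0123) or *Socs3* cKO replicate 1 (0.0126). The 2-week value turned positive under median-of-ratios scaling (0.08), quantile normalization (0.35) and removal of the length and GC trend (0.66).

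*Myd88*, the adaptor on which all these receptors but the decoy and SIGIRR depend, rose at 10 weeks. At 2 weeks it was 18.9, 20.1, 22.9 and 22.6 FPKM in the wild type and 23.4, 24.0, 26.3 and 29.3 FPKM in *Socs3* cKO. The 10-week levels were 16.4, 17.0 and 10.7 FPKM in the wild type and 33.4, 31.4, 42.0 and 32.9 FPKM in *Socs3* cKO. The groups did not overlap at either age, though at 2 weeks the lowest *Socs3* cKO mouse was just above the highest wild type mouse. Limma gave a log2(FC) of 0.28 (SE 0.13, adjusted p = 0.102) at 2 weeks and 1.26 (SE 0.21, adjusted p = 0.00205) at 10 weeks. Quantile normalization gave 0.96 at 10 weeks, below the fold threshold, the adjusted p was 0.01 without the expression filter, and removal of the length and GC trend gave 1.12.

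Of the kinases downstream of MYD88, *Irak3* was a DEG at 10 weeks and *Irak2* at neither age. *Irak2*, an active partner in the MYD88 complex that prolongs signalling, was 4.34 to 4.76 FPKM in the wild type and 3.15, 7.62, 3.82 and 6.10 FPKM in *Socs3* cKO at 2 weeks. By 10 weeks the values were 7.12, 7.43 and 4.66 FPKM in the wild type and 7.18, 8.74, 10.4 and 3.74 FPKM in *Socs3* cKO. The genotypes overlapped at both ages, with log2(FC) 0.09 (SE 0.27, limma adjusted p = 0.794) and 0.17 (SE 0.34, adjusted p = 0.72). The direction at 10 weeks turned under median-of-ratios scaling (-0.09), quantile normalization (-0.23) and removal of the length and GC trend (-0.28).

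*Irak3*, the inhibitory member best known from monocytes and macrophages, was 4.61, 4.80, 3.95 and 4.81 FPKM in the wild type and 3.74, 4.94, 4.09 and 5.45 FPKM in *Socs3* cKO at 2 weeks. In 10-week mice it was 2.57, 4.12 and 1.60 FPKM in the wild type and 8.73, 8.73, 10.2 and 7.47 FPKM in *Socs3* cKO. The groups overlapped at 2 weeks, while every 10-week *Socs3* cKO mouse exceeded the other 11 mice. This corresponded to a log2(FC) of -0.01 (SE 0.17, limma adjusted p = 0.973) at 2 weeks, a sign that turned under scaling (0.19 with median-of-ratios), and 1.72 (SE 0.29, adjusted p = 0.00254) at 10 weeks. The 10-week adjusted p was 0.0115 without wild type replicate 1 and 0.0145 without the expression filter, and with the length and GC trend removed the value was 1.2. At 10 weeks 5 of 8 macrophage markers rose as well, while *C1qa* was -0.24 (limma adjusted p = 0.541). The summed FPKM of the 8 was 360 to 603 in wild type mice and reached 1190 in *Socs3* cKO mice, without overlap. At 2 weeks, where *Irak3* did not differ detectably, none of the 8 was a DEG. Their sums were 270 to 313 and 387 to 763 FPKM, also without overlap. Their part in the *Irak3* difference was not tested.

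Within mice, the 2-week ratio of *Irak3* to *Irak2* was 0.844 to 1.06 (wild type) and 0.652 to 1.18 (*Socs3* cKO). The 10-week ratio was 0.357 to 0.56 (wild type) and 0.98 to 1.97 (*Socs3* cKO). The log2 difference was -0.10 at 2 weeks (exact permutation p = 0.714) and 1.56 at 10 weeks (exact permutation p = 0.0571, the smallest that this form of the test allows for 3 mice against 4, adjusted p = 0.114). The 10-week groups did not overlap, but this form of the test cannot reach 0.05 with these group sizes.

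Relative to the median of all genes tested, the 10-week log2(FC) was 3.83 for *Il1rl2*, 1.41 for *Irak3*, 1.39 for *Il1r1*, 1.34 for *Il1rap*, 1.33 for *Il1rl1*, 0.95 for *Myd88*, 0.62 for *Il1r2* and -1.44 for *Sigirr*. The 2-week values for *Il1r2*, *Il18r1* and *Il1rap* were 2.095, 1.42 and 1.15. Groups did not overlap for 4 of the 10 genes at 2 weeks, all 4 higher in *Socs3* cKO, where 56.1% of all genes tested did not overlap (22.9% higher and 33.2% lower). At 10 weeks this held for 7 genes higher and 1 lower, against 42.3% of all genes (31.2% higher and 11.1% lower). With the length and GC trend removed, 4 of the 10 genes were DEGs at 10 weeks in place of 7, namely *Il1rl2*, *Irak3*, *Myd88* and *Sigirr*.

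**Figure D5:**
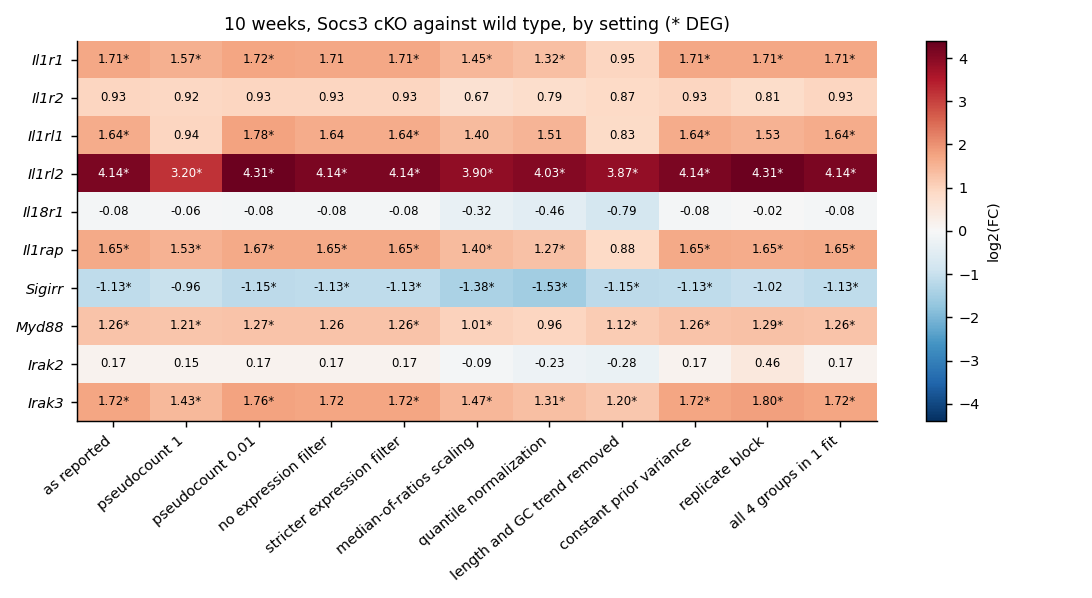
Log2(FC) of *Socs3* cKO against wild type at 10 weeks for each gene (vertical axis) under each processing setting (horizontal axis), with colour for the value and an asterisk for a DEG. The row of *Il1rl2* keeps its asterisk in every setting shown, while that of *Il1rl1* loses it in 6 of 10 alternatives.

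Whether the genotype difference itself changed with age was tested as an interaction over all 4 groups, called at an adjusted p below 0.01. It was called for 6 of the 10 genes, 5 with a higher log2(FC) at 10 than at 2 weeks and 1 with a lower one. Of 13937 genes tested, 25.6% were called (18.5% higher and 7.05% lower in this sense). *Il1rl2* had the largest interaction (4.27, SE 0.57, limma adjusted p = 0.00013), followed by *Irak3* (1.73, SE 0.35, adjusted p = 0.00188) and *Il1r1* (1.58, SE 0.30, adjusted p = 0.00151). *Il1rl1* (1.53, adjusted p = 0.00882) and *Myd88* (0.98, adjusted p = 0.00579) were the others that were higher, and *Il18r1* (-1.28, adjusted p = 0.00726) was the lower one. The median interaction of all genes was 0.55, and the split depended on the scaling. Of all genes 2583 were higher and 983 lower, but 1800 and 1681 under median-of-ratios scaling. The split was 1891 and 2269 under quantile normalization and 1339 and 1866 with the length and GC trend removed. Of the 10 genes these settings called 3 and 3, 2 and 3, and 3 and 2. The lower calls in each include *Sigirr*, whose difference was larger in size at 10 weeks, so a lower log2(FC) is not always a smaller difference. *Il1rl2* and *Il1r1* were called in all 24 alternative settings and *Irak3* in 23, whereas *Il18r1* and *Myd88* were called in 13 and *Il1rl1* in 7. *Il1r2*, *Il1rap*, *Sigirr* and *Irak2* were not called (adjusted p = 0.0192, 0.0429, 0.0108 and 0.903).

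The change between 2 and 10 weeks was fitted within each genotype. In the wild type, *Il18r1* (1.27, SE 0.24, limma adjusted p = 0.000856) and *Sigirr* (1.17, SE 0.21, adjusted p = 0.000519) rose and *Il1rl2* fell by 4.08 on the log2 scale (SE 0.42, adjusted p = 6.02e-06), 3 DEGs of 10, against 25.5% of 13937 genes (6.18% higher and 19.4% lower). *Il1r2* stood higher at 10 weeks (0.89, adjusted p = 0.00468) and *Il1rap* (-0.89, adjusted p = 0.00245) and *Il1r1* (-0.82, adjusted p = 0.00808) lower, each short of the fold threshold, while the median of all genes was -0.44. The split of DEGs, 861 higher and 2698 lower, became 1567 and 1726 under median-of-ratios scaling, 1615 and 1695 under quantile normalization and 1144 and 1151 with the length and GC trend removed, where 3 of the 10 genes were higher and 1 lower in each. Without wild type replicate 2 at 10 weeks, 6 of the 10 genes were DEGs, with *Il1r1*, *Il1rap* and *Irak3* added among the lower. In *Socs3* cKO none of the 10 was a DEG, against 3.54% of all genes (2.01% higher and 1.53% lower). Below a raw p of 0.05 in that limma fit were *Irak3* (0.94), *Il1r1* (0.76), *Il1rl1* (1.05) and *Myd88* (0.43), 4 genes that were all higher at 10 weeks. Both age comparisons share mice with the genotype comparisons and are the same values read the other way.

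Other genes of the pathway were counted from a list of 26 receptor-proximal signalling genes, of which 23 were found by symbol. At 2 weeks none of the 19 tested was a DEG in limma, while 3 were higher and 10 lower at an unadjusted p below 0.05, and at 10 weeks 4 of 17 were, all higher: *Map3k3* (log2(FC) 3.12, limma adjusted p = 0.00155) and *Map3k8* (1.96, adjusted p = 0.000491), MAP kinase kinase kinases, the ubiquitin ligase *Traf6* (1.29, adjusted p = 0.00754) and *Ticam1* (1.14, adjusted p = 0.00752), the TRIF adaptor. Most Toll-like receptors also signal through MYD88. Of 10 Toll-like receptors and co-receptors tested at each age, 3 were higher at 2 weeks, namely *Tlr4* (1.70), *Tlr8* (1.53) and *Tlr7* (1.19). The 10 include *Tlr3*, which does not use MYD88. At 10 weeks 7 were higher, and the 4 with the largest log2(FC) were the LPS co-receptor *Cd14* (2.32), *Tlr8* (2.28), *Tlr5* (1.92) and *Tlr2* (1.84). Neither list had a lower DEG at either age.

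The ligands of these receptors had 8 higher DEGs of 9 tested at 2 weeks and 2 of 10 at 10 weeks, among them *Il1f8* (IL-36β) at both ages (3.41 and 2.91) and *Il33* at 2 weeks (3.21). The other DEG at 10 weeks was *Il1b* (IL-1β), a ligand of both *Il1r1* and the decoy *Il1r2*, with means of 0.561 and 15.6 FPKM (log2(FC) 4.88, limma adjusted p = 0.000259). At 2 weeks *Il1rl2* did not differ detectably while its ligands *Il1f6*, *Il1f8* and *Il1f9* were higher. *Il1f5* (*Il36rn*), the antagonist of the same receptor, was a higher DEG at 2 weeks too (1.68, limma adjusted p = 0.000896). Its means were 26.5 FPKM in the wild type and 86.7 FPKM in *Socs3* cKO. At 10 weeks *Il1rl2* itself was higher, with *Il1f8* the only one of these ligands called. *Il1f6* was then 1.07 (limma adjusted p = 0.205), *Il1f9* -0.41 (adjusted p = 0.35) and *Il1f5* 1.02 (adjusted p = 0.048). The mean of *Il1rl2* was 15.5 FPKM at 2 weeks and 17.6 FPKM at 10 weeks in *Socs3* cKO, against 16.5 and 1.13 FPKM in the wild type.

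Across the 15 mice the levels of several of the 10 genes ran together, which is given as a description, since the mice fall into 4 groups and share their libraries' length and GC trends. Pearson's r of log2(FPKM + 0.1) was 0.976 between *Il1r1* and *Irak3*, 0.927 between *Il1r1* and *Myd88* and 0.923 between *Myd88* and *Irak3*. *Sigirr* ran opposite to *Il1rap* (-0.831) and *Il1rl2* (-0.823). Among 13936 other genes, the one most like *Il1r1* was *Irak3* and the reverse also held, so that 2 of the 10 genes were each other's nearest. The nearest to *Il1rl2* was *Ints6* (0.992), to *Il1rap* *Zmym2* (0.989), to *Il1r2* *Cyp2j6* (0.98) and to *Il1rl1* the MHC class II gene *H2-DMb2* (0.962).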

How the data were processed

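RNA from ear specimens of 15 mice (at 2 weeks 4 per genotype, at 10 weeks 3 of wild type and 4 of *Socs3* cKO) was prepared with a TruSeq v2 kit, which does not record the strand, and sequenced at 50 bases from 1 end. Reads were aligned by the authors to mm9 with TopHat2 (version 2.1.0), and the submitters' processing notes also name Cufflinks. The authors deposited 1 FPKM value per gene and mouse, normalized for transcript length and mapped reads. No read counts were used, the depth behind a value is unknown and no counting error is given. Groups came from the sample labels, and further wild type mice of the study were not analysed here. Identical values above 0 numbered at most 1 between any pair of libraries.

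The scale of analysis was log2(FPKM + 0.1), a scale that understates the change of low genes. Genes that reached 1 FPKM in 3 or more samples of a fit were tested with limma-trend (limma 3.58.1 under R 4.3.3), with 2-sided p-values adjusted by Benjamini-Hochberg over all genes. Genotypes were compared within each age, and the interaction and age changes were fitted on all 4 groups. Ratios were compared with 2-sided exact permutation tests in Python 3.11.15 (scipy 1.17.1, numpy 2.4.6, pandas 2.3.3, matplotlib 3.10.9). Their 2-sided p was 2 times that of the smaller tail, which sets the smallest possible values given. The limma step was tested on simulated data. Alternatives were pseudocounts of 1 and 0.01, no filter or a stricter one (1 FPKM in all samples of a group), quantile normalization, median-of-ratios scaling, removal of each library's trend with transcript length and GC content, a constant prior variance, a replicate block, all 4 groups in 1 fit, and leaving out each mouse. Positions, exons, length and GC content came from the GENCODE annotation of mm9, with length and GC for 19443 genes (92.1%) by symbol.

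All 10 genes were named. Other pathway genes were counted, with up to 4 DEGs per list and age named by size of change, and genes most like a member were ranked by Pearson's r over 15 mice. The members, lists and tests were chosen with earlier results of these data known.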

Additional observations from a re-analysis of the deposited data

Results flagged for a closer look

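In 30 groups of 4 mice tested (10 genes in each group of that size), 2 held a mouse far from the others, and chance alone gives about 1 in 20. Both were *Socs3* cKO replicate 1 at 2 weeks: *Il1rap* was 30.9 FPKM there (gap of 0.856 of the range) and *Sigirr* 2.22 FPKM (0.899). The same library had the lowest GC correlation, -0.632. Without it the 2-week log2(FC) was 0.79 for *Il1rap* and 0.05 for *Sigirr*.

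The genotype difference changed between 2 and 10 weeks, by the interaction test in limma, for 6 genes. The change was 4.27 for *Il1rl2* (adjusted p = 0.00013), 1.73 for *Irak3* (0.00188), 1.58 for *Il1r1* (0.00151), 1.53 for *Il1rl1* (0.00882) and 0.98 for *Myd88* (0.00579). For *Il18r1* it was -1.28 (0.00726). For *Il1rl2* this change lay in the wild type, where the gene fell by 4.08 between the ages, while in *Socs3* cKO the age difference was 0.20 (SE 0.38, adjusted p = 0.747).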

How the results depend on the processing

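Counts of DEGs depended on the libraries used. At 2 weeks there were 1951 DEGs, 3300 with all 4 groups in 1 fit, and 859 to 3348 leaving out 1 mouse, the highest without *Socs3* cKO replicate 2; 2 of the 10 genes were DEGs, or 1 with a pseudocount of 1 and 1 to 2 leaving out 1 mouse. At 10 weeks there were 1957 (1638 higher and 319 lower), 1131 without a filter, 1279 with the length and GC trend removed, and 745 to 2665 leaving out 1 mouse. The split at 10 weeks was 1066 higher and 643 lower (median-of-ratios), 921 and 771 (quantile normalization), 756 and 523 with the trend removed and 619 and 512 without a filter. Of the 10 genes, 7 were DEGs, 3 without a filter and 4 with the trend removed, and 5 to 7 leaving out 1 mouse. The interaction had 3566 calls (1994 to 5117 leaving out 1 mouse), and 6 of the 10 genes (3 to 8). Age changes in the wild type numbered 3559 DEGs, 2295 with the trend removed and 2205 to 4519 leaving out 1 mouse, with 3 of the 10 genes, 1 with a pseudocount of 1 and 3 to 6 leaving out 1 mouse. In *Socs3* cKO they numbered 493 (300 to 700 leaving out 1 mouse). The causes were not tested.

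The log2 ratio of *Il1r2* to *Il1r1* at 2 weeks was 1.57 to 1.98 leaving out 1 mouse, where the exact p in the form used cannot go below 0.0571. That of *Irak3* to *Irak2* at 2 weeks was -0.21 to 0.07, and turned positive (0.071) without *Socs3* cKO replicate 2.

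Same-numbered mice did not deviate together (correlations of -0.041 to 0.135 at 2 weeks and -0.209 to 0.068 at 10 weeks). The values thus gave no sign that the numbers pair the mice, though so few mice cannot exclude it. With the replicate block there were 751 DEGs at 2 weeks, 1899 at 10 weeks and 2378 interaction calls, with 1, 5 and 3 of the 10 genes. In the block the ratio *Il1r2* to *Il1r1* at 2 weeks was 1.76 (exact p = 0.125, the smallest possible). A block was not fitted for the age changes, since the blocks were set within each age.

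Directions without a call turned as follows. At 2 weeks, under median-of-ratios, quantile normalization and the length and GC trend removed in turn, *Sigirr* was 0.083, 0.35 and 0.66, *Irak3* 0.19, 0.43 and 0.33, and *Il1rl2* 0.07 and 0.12 in the scaling and quantile settings. Leaving out 1 mouse, values spanned -0.187 to 0.054 for *Sigirr*, -0.097 to 0.08 for *Irak3*, -0.31 to 0.045 for *Il1rl2* and -0.12 to 0.29 for *Irak2*. At 10 weeks *Irak2* was -0.092, -0.23 and -0.28, and leaving out 1 mouse *Irak2* spanned -0.046 to 0.46 and *Il18r1* -0.32 to 0.10. The *Irak2* interaction was -0.39, -0.77 and -1.08, or -0.135 to 0.37 leaving out 1 mouse. *Il1rl1* in wild type age was 0.18 with the trend removed. In *Socs3* cKO age, *Il1r2* was 0.048 (quantile) and 0.105 (trend removed), *Sigirr* -0.065 and -0.106, and leaving out 1 mouse *Il1r2* reached 0.075 and *Il18r1* 0.076, and *Sigirr* spanned -0.014 to 0.26.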

Other observations

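Several lists of immune and vascular markers moved at 10 weeks as well, when 12.5% of all genes tested were higher DEGs. Of 6 Langerhans cell and antigen presentation genes, 4 were higher DEGs in *Socs3* cKO, among them *Cd207* (langerin, log2(FC) 1.87, limma adjusted p = 0.000461). Their summed FPKM was 847 to 1010 for wild type mice against 1660 to 2580 for *Socs3* cKO mice. *Cd207* was a higher DEG at 2 weeks too (1.69, adjusted p = 0.000413), when the sums were 645 to 788 and 840 to 942. At 10 weeks 1 of 7 T cell genes tested was a higher DEG and neither of 2 neutrophil genes was. *Csf1r*, the receptor of macrophage growth factor CSF1, was 1.22 higher (adjusted p = 0.000438). Of 5 endothelial genes 3 were higher, with sums of 19.6 to 22.8 and 37.4 to 57.2 FPKM. Of 7 fibroblast genes 1 was higher at 10 weeks, and at 2 weeks 1 was higher and 3 lower, with sums of 12900 to 15100 and 5250 to 7310 FPKM.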
